A study of Mus musculus with 2 samples.

Results

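The miR-17~92 cluster is a run of microRNA hairpins on mouse chromosome 14. Its 6 hairpin genes, Mir17, Mir18, Mir19a, Mir20a, Mir19b-1 and Mir92-1, were taken by name from the 1973 microRNA genes counted, and the rule sets no threshold on a measured value, although the cluster was picked for description with earlier results of these data known. The counts came from microRNA sequencing of whole kidney of B6NCrl mice on postnatal day 0, with RNA below a size limit of 30 that the labels give without a unit. The series has 1 group of 2 biological replicates, pup 2 and pup 1. Each sample held the 2 kidneys of 1 pup, both pups came from pregnancy 1, and sex was not collected. No genotype or treatment differed between them. The tables held 3846704 counts on named genes in pup 2 and 5832192 in pup 1, and levels are given as CPM, counts per 1000000 of these totals. No cell type was separated, so the nephron progenitors in which the cluster is studied could not be told apart from the other cells of the kidney, nor could fewer cells of a type be told apart from less RNA per cell.

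MicroRNAs are cut from hairpins in a longer transcript, and a short mature strand then guides repression of messenger RNAs that pair with its seed, the bases near its 5′ end. The miR-17~92 hairpins share 1 primary transcript, and the cluster is known for promoting proliferation and restraining cell death. In mouse kidney development it is known for maintaining nephron progenitor proliferation. The related clusters miR-106b~25 and Mir106a-Mir363 carry hairpins of the same seed families.

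The mature strands show which members can pair with the same targets, so the known guide strand of each member is printed 5′ to 3′ with its seed, bases 2 to 8, in capitals. The sequences are those of RefSeq for GRCm38.p6, in which all 15 genes of the 3 clusters were matched.
miR-17-5p of Mir17: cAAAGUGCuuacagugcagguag
miR-20a-5p of Mir20a: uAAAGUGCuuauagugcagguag
miR-18a-5p of Mir18: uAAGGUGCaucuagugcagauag
miR-19a-3p of Mir19a: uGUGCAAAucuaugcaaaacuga
miR-19b-3p of Mir19b-1: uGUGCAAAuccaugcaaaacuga
miR-92a-3p of Mir92-1: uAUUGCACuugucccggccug
The 6 strands fall into 4 seed families. miR-17-5p and miR-20a-5p share a seed and differ at C1U and C12U, with positions counted from 1 at the 5′ end and the base of miR-17-5p given first. miR-18a-5p differs from miR-17-5p at 6 positions, of which A4G lies in the seed and makes it a family of its own. miR-19a-3p differs from miR-19b-3p only at C11U, outside the seed that they share. The seed of miR-92a-3p is shared with no other member.

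All 6 hairpins lie on the plus strand of chromosome 14 (mm10, the GRCm38 assembly) between 115043671 and 115044506, a span of 836 bases. They sit inside exon 2 of Mir17hg, the noncoding host gene, whose exon runs over 3457 bases between 115043271 and 115046727. From 5′ to 3′ the order is Mir17 (115043671 to 115043754), Mir18 (115043851 to 115043946), Mir19a (115044000 to 115044081), Mir20a (115044157 to 115044263), Mir19b-1 (115044305 to 115044391) and Mir92-1 (115044427 to 115044506). The hairpins are 80 to 107 bases long, and the gaps between neighbours are 96 bases at the 5′ end and 35 at the 3′ end. Their GC content runs between 43.7% and 47.5%. Predicted folding energies range between -29.2 kcal/mol for Mir18 and -38.7 kcal/mol for Mir19a. Neighbours on 1 transcript therefore resembled each other in length and base composition, whereas their counts, given next, did not.

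The cluster held 3.11% of the counts on named genes in pup 2 and 3.42% in pup 1, with 95% Wilson intervals of 3.10% to 3.13% and 3.41% to 3.43%. The mean was 3.27% ± 0.217 (SD, n = 2). Of all reads of the library, including those that name no gene, the cluster held 1.79% in pup 2 and 1.99% in pup 1. The intervals treat the reads of 1 library as independent, so they cover counting error only and not the spread between pups. The reads carry no molecular identifiers and several may stem from 1 molecule, so even the counting error may be larger. All 6 members stood at 10 CPM or more in both pups, a level reached by 246 of the 1973 genes (12.5%). Reads matching several places are left out of all gene counts. Genes with identical copies may therefore be undercounted in this share and in the ranks below. No read was counted on the strand opposite to any member.

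The miR-17 seed family took most of the cluster's counts, which leave out reads matching several places. Mir17, the hairpin of miR-17-5p, was counted at 18258 CPM in pup 2 and 20239 CPM in pup 1, a mean of 19249 ± 1401 CPM (SD, n = 2), which ranked 16 among all genes. Mir20a, the other hairpin with this seed, was at 8609 CPM in pup 2 and 9627 CPM in pup 1, a mean of 9118 ± 719 CPM at rank 23. Together they made up 86.3% of the cluster in pup 2 and 87.3% in pup 1. Mir18, the source of miR-18a-5p, followed at 2632 CPM in pup 2 and 2646 CPM in pup 1 (rank 46). Its share of the cluster was 8.45% in pup 2 and 7.74% in pup 1.

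Mir92-1, which gives miR-92a-3p, was at 1591 CPM in pup 2 and 1641 CPM in pup 1 (rank 60), or 5.11% and 4.80% of the cluster in pup 2 and pup 1. The miR-19 hairpins, known as the main oncogenic component of the cluster in mouse lymphoma, were the least counted. Mir19a stood at 32.8 CPM in pup 2 and 36.3 CPM in pup 1 (126 and 212 counts, rank 201). Mir19b-1 stood at 12.2 CPM in pup 2 and 12.5 CPM in pup 1 (47 and 73 counts, rank 242). The miR-19 hairpins thus supplied 0.144% of the cluster's counts in pup 2 and 0.143% in pup 1. Reads of miR-19b-3p and miR-92a-3p that match more than 1 hairpin are not in these counts, as described below.

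**Figure D1:**
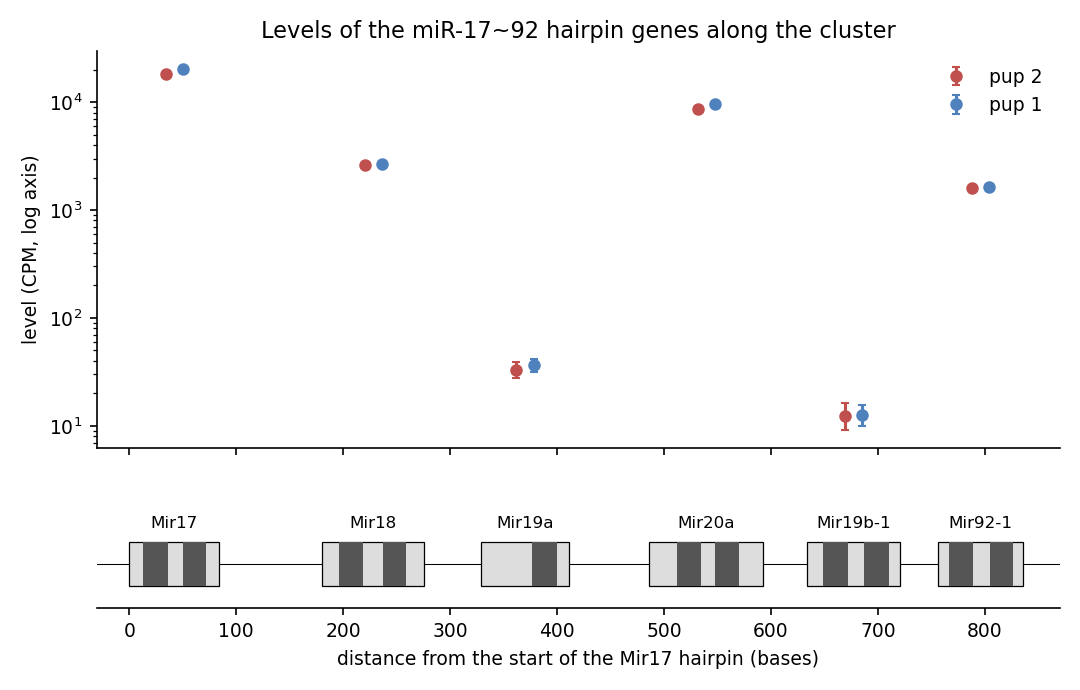
Level of each member in CPM (log axis) in pup 2 and pup 1 above its position in bases from the start of the Mir17 hairpin; bars are 95% Wilson intervals, pale boxes are hairpins and dark boxes the mature arms RefSeq lists. Mir19a and Mir19b-1 lie between hairpins with far higher counts, and Mir17, the first hairpin, is the highest in both pups.

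No pair of members overlapped between pups: in each of the 15 pairs both values of 1 gene lay above both of the other. The order was Mir17, Mir20a, Mir18, Mir92-1, Mir19a and Mir19b-1, in both pups. It does not follow the order of the hairpins along the transcript. When counts were divided by hairpin length and rescaled to the same sum as CPM, the means were 19083 for Mir17, 7096 for Mir20a, 2289 for Mir18, 1682 for Mir92-1, 35.1 for Mir19a and 11.8 for Mir19b-1, in the same order. The mature strands are 21 to 23 bases long, so strand length differs little between members. Per 1000000 of all reads the means were lower for every member, with 11134 for Mir17, 5274 for Mir20a, 1526 for Mir18, 935 for Mir92-1, 20.0 for Mir19a and 7.15 for Mir19b-1. How efficiently each strand is captured in a library was not measured.

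Mir17 gave 2.12 reads per read of Mir20a in pup 2 and 2.10 in pup 1. Per read of Mir18 it gave 6.94 in pup 2 and 7.65 in pup 1. Per read of Mir92-1 the values were 11.5 in pup 2 and 12.3 in pup 1. The distance to the miR-19 hairpins was of another order: Mir17 gave 557 reads per read of Mir19a in both pups. Per read of Mir19b-1 it gave 1494 in pup 2 and 1617 in pup 1, where reads matching both Mir19b-1 and Mir19b-2 are not counted.

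**Figure D2:**
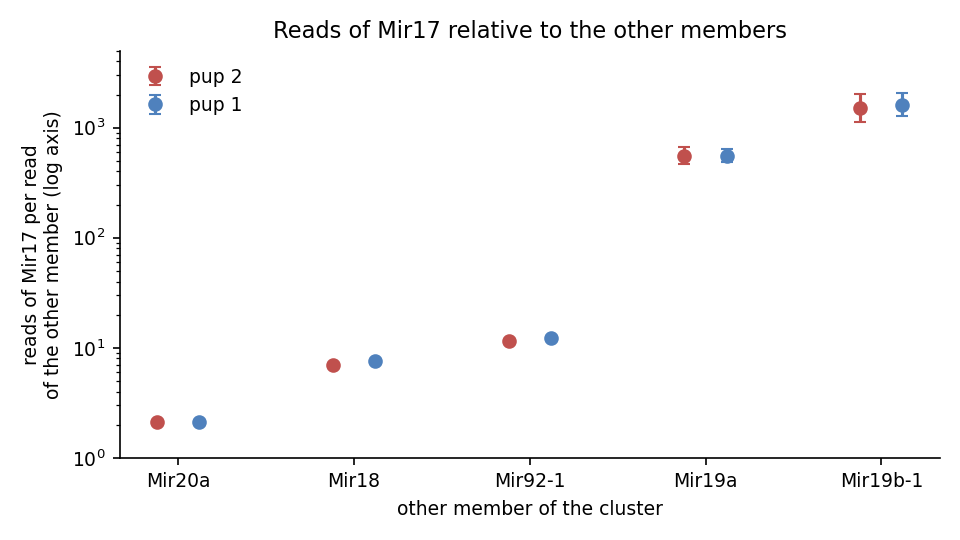
Reads of Mir17 per read of each other member (log axis) in pup 2 and pup 1, with 95% intervals from counting error. The ratios run between 2.12 for Mir20a and 1494 for Mir19b-1 in pup 2, and between 2.10 and 1617 in pup 1.

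The 15 ratios between members need no scaling of the libraries, and each was compared between pups by Fisher's exact test with Benjamini-Hochberg adjustment over the 15. In 4 of them the ratio differed. Mir17 to Mir18 was 6.94 in pup 2 and 7.65 in pup 1 (adjusted p = 6.45e-12, Fisher's exact test). Mir20a to Mir18 was 3.27 in pup 2 and 3.64 in pup 1 (adjusted p = 3.88e-12, Fisher's exact test). The other 2 set Mir17 and Mir20a against Mir92-1, with adjusted p of 8.35e-05 and 2.64e-05 by the exact test. Every ratio that differed thus had a miR-17 seed hairpin over Mir18 or Mir92-1 and was lower in pup 2. No pair with Mir19a or Mir19b-1 passed, but their counts are low. For Mir17 to Mir19a the 95% interval in pup 2 was 468 to 669. The 4 calls therefore do not show a pattern of the seed. The 15 pairs share genes, so the 4 calls are not separate results. Pairs of other genes were not tested, so whether 4 of 15 is unusual is not known. A chi-square of both pups' counts was 73.62 on 5 degrees of freedom within the members. Over the 324 genes compared below it was 66.2 per degree. A chi-square grows with the counts, so these values do not show whether the members differed less than other genes. Between the hairpins of the miR-17 seed, the ratio Mir17 to Mir20a had 95% intervals of 2.09 to 2.15 in pup 2 and 2.08 to 2.12 in pup 1, and the test gave an adjusted p of 0.753 (Fisher's exact test). These tests compare the reads of 2 libraries and cover counting error only.

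Across all genes, 324 had a mean count of at least 10 and were compared between pups by an exact two-sided binomial test on TMM-scaled library sizes, adjusted over the 324. It called 30.2% of the genes, 15.4% lower and 14.8% higher in pup 2. Of the 6 members, 2 were lower in pup 2, 0 were higher and 4 did not pass. The 2 of 6 called is near the 30.2% over all genes. Both that passed carry the miR-17 seed and are the 2 most counted members. Mir106b, a paralog with the same seed, did not pass. Mir17 had a log2 ratio of pup 2 over pup 1 of -0.15 (95% counting interval -0.16 to -0.13, adjusted p = 3.53e-100, exact binomial test), and Mir20a of -0.16 (-0.18 to -0.14, adjusted p = 3.51e-56, exact binomial test). Mir18 was at -0.0054 (-0.04 to 0.03) and Mir92-1 at -0.04 (-0.09 to 0.0043). For the sparsely counted Mir19a the ratio was -0.15 with an interval of -0.48 to 0.18, and for Mir19b-1 it was -0.03 with an interval of -0.59 to 0.52.

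The members' median log2 ratio was -0.09, against -0.02 for all tested genes, and 54.3% of all tested genes had a ratio below 0. The median absolute log2 ratio over all tested genes was 0.15 and its 90th percentile 0.48. The ratios of Mir17 and Mir20a were near that median in size. It includes sparsely counted genes, whose ratios carry more counting error. Whether Mir17 and Mir20a moved more than genes of like counts was not tested. With the spread between pups included, as edgeR's common dispersion (a biological coefficient of variation of 9.19%), the edgeR exact test called 0.309% of genes, 1 of 324, and 14 at an unadjusted p under 0.05. It called 0 members, and 0 members had an unadjusted p under 0.05. The dispersion was estimated from the same 2 pups that the test compares, 1 library against 1, so ratios of the members' size could hardly pass it, and the count of 0 does not show that the members did not differ. With 1 group of 2 pups there is no replicate check of a difference between pups.

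Marker microRNAs of other cell types were read beside these ratios. Mir126a, the only counted gene of 2 listed for endothelium, was at 87209 CPM in pup 2 and 71968 CPM in pup 1. It was called higher in pup 2. The 6 smooth muscle and stroma genes summed to 44552 CPM in pup 2 and 40300 CPM in pup 1, with 2 higher and 0 lower in pup 2. Mir143 alone was at 39014 CPM in pup 2 and 34820 CPM in pup 1. Mir143 and Mir145a were the higher genes. Mir214, Mir199a-1, Mir199a-2 and Mir199b, which did not pass, had log2 ratios of -0.0055, -0.76, -0.13 and -0.16. The 5 epithelial genes summed to 31660 CPM in pup 2 and 31551 CPM in pup 1, and the 4 proximal tubule genes to 896 CPM in pup 2 and 848 CPM in pup 1, so both kidney lists were present. Of the epithelial genes, Mir200b was higher and Mir200c lower in pup 2, and the others did not pass. Of the proximal tubule genes, Mir192 was higher in pup 2, while Mir194-1, Mir194-2 and Mir215, which did not pass, had log2 ratios of -0.43, -0.13 and -0.28. The 3 red blood cell genes summed to 98.8 CPM in pup 2 and 241 CPM in pup 1. Its 2 tested genes went opposite ways: Mir451a was lower in pup 2, at 53.6 CPM in pup 2 and 208 CPM in pup 1, and Mir144 was higher, at 42.9 CPM in pup 2 and 32.2 CPM in pup 1. The leukocyte genes with a row summed to 672 CPM in pup 2 and 735 CPM in pup 1. Of these only Mir223 passed, lower in pup 2. Mir122 of liver was called lower in pup 2, at 44.2 CPM in pup 2 and 56.9 CPM in pup 1. Lists of other origins were near 0: neurons summed to 2.08 CPM in pup 2 and 1.54 CPM in pup 1, with 3 of 5 counted genes listed at 0, striated muscle to 4.42 CPM in pup 2 and 5.14 CPM in pup 1, with 4 of 5 at 0, and pluripotent cells to 13.5 CPM in pup 2 and 14.1 CPM in pup 1, with 4 of 11 at 0. The neuron and striated muscle lists hold genes with numbered copies, such as Mir124a-1 and Mir124a-2, or Mir133a-1 and Mir133a-2. Reads matching several places are not counted, so values near 0 do not show that these cells were absent. The part of the marker lists in the members' ratios was not tested.

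**Figure D3:**
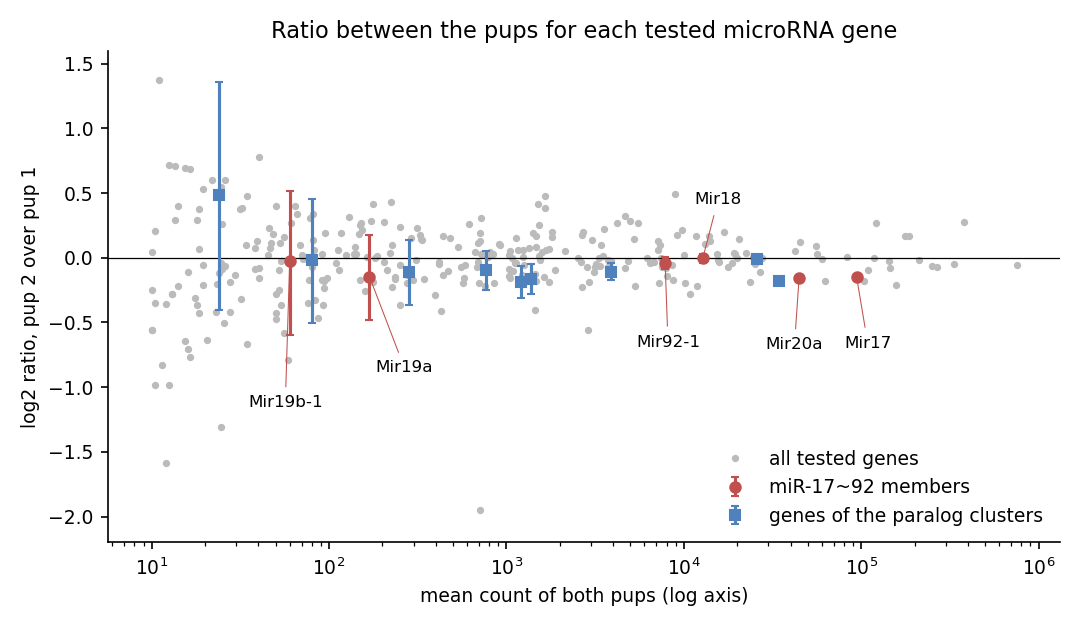
Log2 ratio of pup 2 over pup 1 against the mean count of both pups (log axis) for the 324 tested genes (grey), with the 6 miR-17~92 members (red circles) and 9 genes of the paralog clusters (blue squares) and their 95% counting intervals. Members lie between -0.16 and -0.0054, inside the cloud of the other genes.

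The same seeds are also made by the paralog clusters. The paralog strands are printed with the seed in capitals because they show how few bases separate them from the members.
miR-106a-5p of Mir106a: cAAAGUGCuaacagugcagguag
miR-20b-5p of Mir20b: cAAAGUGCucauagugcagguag
miR-93-5p of Mir93: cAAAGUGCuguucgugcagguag
miR-106b-5p of Mir106b: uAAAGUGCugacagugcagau
miR-18b-5p of Mir18b: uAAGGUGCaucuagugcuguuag
miR-25-3p of Mir25: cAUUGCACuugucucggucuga
miR-363-3p of Mir363: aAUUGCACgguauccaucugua
Relative to miR-17-5p, miR-106a-5p differs only at U10A, and relative to miR-18a-5p, miR-18b-5p differs at A18U and A20U. Relative to miR-92a-3p, miR-25-3p differs at U1C, C14U and C18U over the 21 bases compared.

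miR-17~92 outweighed both paralog clusters. Its summed counts were 2.46 times those of miR-106b~25 in pup 2 and 2.51 times in pup 1. Over Mir106a-Mir363, on chromosome X, the fold was 43.0 in pup 2 and 42.7 in pup 1. The miR-106b~25 cluster, inside Mcm7 in mouse, held 1.27% of counts in pup 2 and 1.36% in pup 1.

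Mature arms were not separated, so all counts of a hairpin were placed under the seed of its guide strand. By this grouping, the cluster supplied 68.5% of the miR-17 seed counts of the 3 clusters in pup 2 and 69.1% in pup 1. Nearly all of the rest, 30.3% in pup 2 and 29.6% in pup 1, came from Mir93 and Mir106b. Mir93 was at 6563 CPM in pup 2 and 7429 CPM in pup 1, and Mir106b at 5319 CPM in pup 2 and 5355 CPM in pup 1. Mir17 exceeded its nearest paralog in sequence, Mir106a, 69.1-fold in pup 2 and 68.3-fold in pup 1. Mir20a exceeded Mir20b 37.4-fold in pup 2 and 36.7-fold in pup 1.

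The miR-18 seed came almost wholly from the cluster, with Mir18 holding 99.4% of its counts in both pups. The counts of the miR-92 seed hairpins were shared more evenly. Mir92-1 held 62.0% of these hairpin counts over the 3 clusters in pup 2 and 60.9% in pup 1. Mir25 held 30.0% and 30.9% in pup 2 and pup 1. Reads of miR-92a-3p, the strand with this seed, are not counted where they match both Mir92-1 and Mir92-2, whereas miR-25-3p has no identical copy. Outside the 3 clusters this seed is also carried by Mir32, at 217 CPM in pup 2 and 213 CPM in pup 1, and by Mir92b, at 72.3 CPM in pup 2 and 88.3 CPM in pup 1. Mir367, a gene known from pluripotent cells with the same seed, was listed at 0 in both pups. The counts of the miR-19 hairpins were low in both clusters that carry them, summing to 51.0 CPM in pup 2 and 53.2 CPM in pup 1. Reads of miR-19b-3p that match both Mir19b-1 and Mir19b-2 are not in these counts, so the level of the seed is not known.

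**Figure D4:**
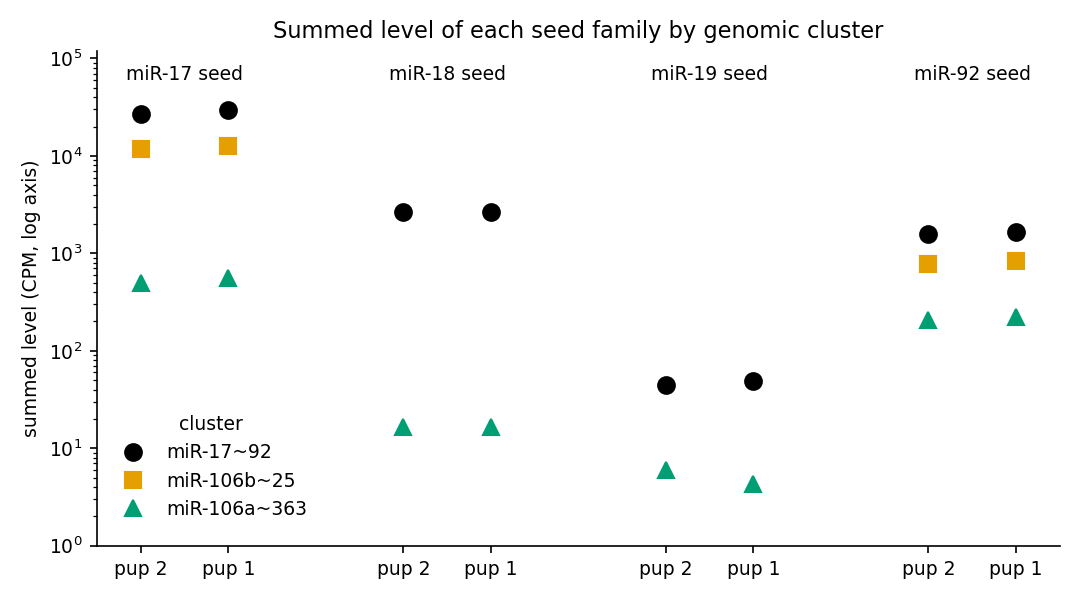
Summed level in CPM (log axis) of each seed family by cluster, in pup 2 and pup 1; circles are miR-17~92, squares miR-106b~25 and triangles Mir106a-Mir363. By these hairpin counts, the miR-17 seed family is highest in every cluster that carries it, and miR-17~92 is highest for all 4 families in both pups. Reads of miR-19b-3p and miR-92a-3p that match 2 hairpins are not included.

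Of the 9 paralog genes, 4 were lower in pup 2 by the exact binomial test, 0 were higher and 5 did not pass, against the 15.4% and 14.8% of all tested genes. Mir93 had a log2 ratio of -0.18 and Mir106b of -0.0076, although both sit in 1 cluster. Mir106a and Mir20b, which carry the miR-17 seed, had ratios of -0.16 and -0.19. These are descriptions of the same pair of libraries.

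For 2 members the count leaves out reads of the exact mature strand. miR-19b-3p is identical in Mir19b-1 and Mir19b-2, and miR-92a-3p in Mir92-1 and Mir92-2. The stretches around the strand, which is in capitals here, show how far each pair stays identical.
Mir19b-1: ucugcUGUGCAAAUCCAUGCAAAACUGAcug
Mir19b-2: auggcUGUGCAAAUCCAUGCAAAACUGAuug
Mir92-1: auggUAUUGCACUUGUCCCGGCCUGuug
Mir92-2: aaagUAUUGCACUUGUCCCGGCCUGagg
The shared stretch is 25 bases in the miR-19b pair and 22 in the miR-92a pair. A read inside it matches both hairpins, and reads matching several places, 31.0% of all reads in pup 2 and 30.3% in pup 1, were listed apart from the gene counts. The whole mature strand lies inside the stretch. The counts of Mir19b-1 and Mir92-1 can therefore hold only reads that reach past it or lie elsewhere in the hairpin. How many of the reads listed apart came from these hairpins was not tested. Levels of Mir19b-1 and Mir92-1, and the miR-19 and miR-92 shares, are uncertain for that reason. So are their places in the order of members and the shares of the cluster set beside them. Among the reads assigned to 1 hairpin only, Mir92-1 was counted 28.7 times as often as Mir92-2 in pup 2 and 27.3 times in pup 1, while Mir19b-1 was counted 2.04 times as often as Mir19b-2 in pup 2 and 2.92 times in pup 1. Among the 2238 hairpins searched, miR-19a-3p has no identical copy, and its nearest match, in Mir19b-1, differs at 1 base. For miR-17-5p the nearest match, in Mir106a, also differs at 1 base. Whether the alignment allowed such a mismatch was not stated, so the fold of Mir17 over Mir106a carries the same doubt.

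The genes next to each member in level were named by mean CPM alone, since 2 replicates of 1 group give no pattern to compare. Mir17 stood between Mir30a, at 19754 CPM in pup 2 and 22401 CPM in pup 1, and Mir429, at 17193 CPM in pup 2 and 17154 CPM in pup 1. The pup ranges of Mir17 and Mir30a overlapped, and those of Mir17 and Mir429 did not. Mir20a lay between Mir99b and Mir200b and overlapped both. Mir18 overlapped Mir16-1 above it and stood apart from Mir872 below. Mir92-1 overlapped Mir15b above it and stood apart from Mir342 below. Mir19a overlapped Mir3102 and Mir103-2, and Mir19b-1 overlapped Mir667 and Mir495.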

How the data were processed

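MicroRNA-seq counts were analysed in kidneys of 2 newborn pups. The authors deposited whole-number read counts per hairpin gene, not normalised, so mature arms were not separated. Reads were aligned to mm10 and counted on annotation M4, per the deposited notes. The aligner is not given in the sources used here. Counts on the gene strand were used, a column identified from its values. Rows naming no gene (42.6% of reads in pup 2, 41.8% in pup 1) stayed out of library sizes; a count of 0 allows 3 counts, 0.780 CPM in pup 2 and 0.514 CPM in pup 1.

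Identifiers were matched to GENCODE M21 (1894 of 1973 genes). Pups were compared with an exact binomial test (prior count 0.5 for ratios, mean count of at least 10, TMM from edgeR 4.0.16, Benjamini-Hochberg threshold 0.05) and with edgeR's exact test. DESeq2 1.42.0 size factors, other totals, filters and priors were alternatives. The binomial test was first checked on simulated counts. These held counting error and set differences but no spread between pups, so the check does not cover such spread. Hairpins were folded with ViennaRNA 2.7.2. Named genes were the members, paralog-cluster genes, level neighbours, other genes sharing a seed with a mean count of at least 100, and cell type markers. The members and lists were chosen with earlier results of these data known. Nothing beyond the pup numbers says whether library preparation was separate, so the spread may be partly technical.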

Additional observations from a re-analysis of the deposited data

How the results depend on the processing

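No paired analysis was possible because both pups form 1 group, and leaving out a pup leaves no comparison between pups. The cluster's mean share of 3.27% became 1.89% of all reads and 3.86% without the most abundant gene, Mir10a; leaving out a pup gave 3.11% to 3.42%. Of the 98 genes and 2 members called by the binomial test, the edgeR exact test called 1 and 0. Signs turned for Mir18 (0.0135) and for Mir106b (0.0112) and Mir18b (0.0026) with DESeq2 size factors, and for Mir19b-1 (0.0174) and Mir18b (0.0174) with a prior count of 5, none of them called; the cause was not tested. Mir17 stayed between -0.17 and -0.13 and Mir20a between -0.18 and -0.14. Mir92-1 was also called lower with no filter on low counts (adjusted p = 0.0436, exact binomial test) and, in an alternative chosen after seeing the data, with TMM factors from every gene with a count (adjusted p = 0.0203, exact binomial test). That scaling gave 68 lower and 41 higher calls, against 50 and 48. The share of the miR-17 seed supplied by the cluster holds no copied gene, so leaving those out could not move it; a further quantity chosen after seeing the data, the miR-17 seed genes' share of all counts of the 3 clusters, was 88.5% and became 91.9% without the copied genes.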
